A study of Mus musculus with 5 samples.

Results

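The amino acid and peptide transporters described here are the genes of 8 solute carrier families (Slc1, Slc3, Slc6, Slc7, Slc15, Slc36, Slc38 and Slc43), taken by gene symbol. The families were chosen with earlier results of these data known. Of the 23022 genes in the authors' deposited table, 58 symbols matched the pattern, and 57 of them were kept as members. The 1 symbol set aside was Slc7a6os, named for the strand opposite Slc7a6, which is no transporter. RefSeq lists 11 further coding genes of these families with no row in the table, among them the peptide transporter family member Slc15a5, and they were not analysed here.

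Cells take up amino acids through membrane carriers, because charged and polar molecules do not cross lipid bilayers unaided. Some carriers use the sodium gradient to concentrate amino acids inside the cell (Slc1, Slc6, Slc38), others use protons (Slc15 for small peptides, Slc36), and others exchange or let through amino acids without concentrating them (many Slc7 carriers, Slc43). The Slc3 proteins carry nothing themselves; they are heavy chains that bring Slc7 light chains to the plasma membrane. In liver, amino acids taken up by hepatocytes feed plasma protein synthesis, urea and glucose production, while the fetal liver also houses blood cell formation, in which red cell precursors take up glycine for heme.

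The samples were livers of mouse embryos at E18.5, shortly before birth, and their poly(A)-selected RNA was sequenced. The 4N group held 3 libraries from embryos that were Hhex knockouts and had received td-Tomato positive 4N-ESCs (tetraploid embryonic stem cells) at the blastocyst stage, and the WT group held 2 libraries from normal embryos of that day. Hhex encodes a homeobox factor needed for liver formation, and the labels give no strain, no stem cell line and no share of host-derived cells in the 4N livers. Ploidy, origin of the liver cells, host genotype and embryo manipulation differed together between the groups and cannot be told apart.

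The authors deposited 1 table comparing the groups, which holds no value of any single library, so sequencing depth is unknown and overlap between the groups could not be seen. A level below is the mean normalized count of a group, computed from the mean over 5 libraries and the fold change of the authors' deposited table, and it carries the standard error (SE) of that fold change. Log2 fold changes are 4N over WT, and a gene rose or fell where the authors' adjusted p, by their Wald test over all genes, was under 0.05. No label gives the litter of an embryo, so p-values measure the spread between these samples. Hhex itself stood at an implied 6753 normalized counts in the 4N group, against 4607 in the WT group, with 0.55 (SE 0.33, adjusted p = 0.29) as its log2 fold change according to the authors' deposited table. Of 12 hepatocyte markers none was at 0 in either group, and the most abundant, albumin (Alb), was at 6210266 implied normalized counts in the 4N group, against 6185296 in the WT group.

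Of the 57 transporters, 10 rose, 8 fell and 39 did not pass the test. That is 31.6% called, where 15.3% of all genes were called by the same rule (7.94% higher and 7.41% lower). Where the mean reached 1000 normalized counts, 15 of 29 transporters (51.7%) were called, where 22.2% of all such genes were. The median log2 fold change was 0.21 over the transporters and -0.0010 over all genes. Summed over the 57 members, the implied level was 225423 normalized counts in the 4N group, against 242126 in the WT group, a ratio of 0.931. Recentring the table on secreted plasma proteins raised every log2 fold change by 0.55 and gave 24 transporters higher and 5 lower. Of these 27 proteins 14 were themselves lower in the 4N group. The shift left the median of all genes at 0.55, with 31.9% of them called, so it is not a neutral centring of the table. A t reference with 3 degrees of freedom ended all 18 calls (10 higher and 7 lower at an unadjusted p under 0.05), as it did every call in the table.

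**Figure D1:**
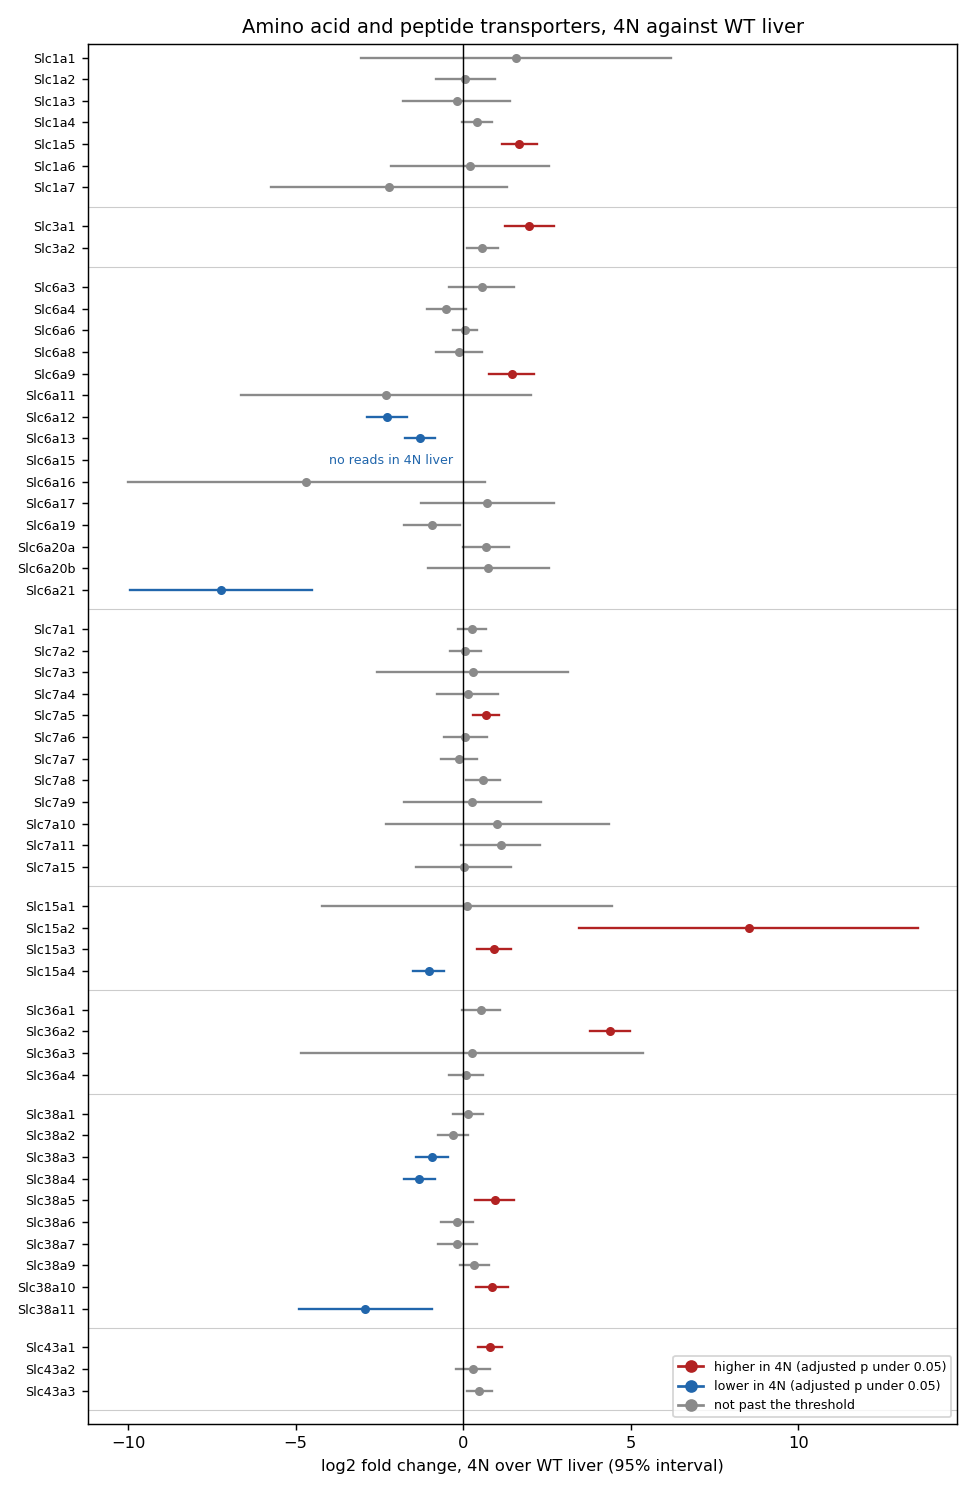
Log2 fold change of each of the 57 transporters, 4N over WT liver, with its 95% interval computed from the SE, grouped by family from Slc1 at the top to Slc43 at the bottom. Red members rose and blue members fell at an adjusted p under 0.05, grey ones did not pass, and Slc6a15, with no reads in the 4N group, has no point.

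The largest share of transporter transcripts belonged to the Slc38 family of sodium-coupled neutral amino acid carriers, and its most abundant members were lower in the 4N livers. Of its 10 measured members, 3 fell, 2 rose and 5 did not pass. Slc38a4, a system A carrier typical of hepatocytes, stood at 28142 normalized counts in the 4N group, against 69513 in the WT group. According to the authors' deposited table its log2 fold change was -1.30 (SE 0.23, adjusted p = 5.7e-07). Slc38a3, a system N carrier that moves glutamine, histidine and asparagine in either direction, stood at 22912 in the 4N group, against 43636 in the WT group. According to the authors' deposited table its log2 fold change was -0.93 (SE 0.25, adjusted p = 0.0024), and recentring on secreted plasma proteins ended this call (-0.37, adjusted p = 0.26). Both carriers nevertheless held the first and second place per kilobase of exon among the transporters in either group.

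The promoter of Slc38a4, the most abundant transporter, is shown because its transcript fell most in absolute level, with the 50 bases from the start site in capitals. Slc38a4 has 3 listed start sites, and the one furthest upstream lies in chr15:97055907-97056206 on the minus strand (RefSeq, GRCm38.p6).
Slc38a4: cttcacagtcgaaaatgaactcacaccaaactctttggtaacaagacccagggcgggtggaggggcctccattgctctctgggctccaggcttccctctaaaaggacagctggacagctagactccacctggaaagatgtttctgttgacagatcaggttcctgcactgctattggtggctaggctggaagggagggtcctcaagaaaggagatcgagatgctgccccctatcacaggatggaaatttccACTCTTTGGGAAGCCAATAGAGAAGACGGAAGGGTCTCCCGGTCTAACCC

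Per kilobase, Slc38a4 and Slc38a3 together made up 22.4% of the summed transporter level in the 4N group, against 47.3% in the WT group. The next place went to a different gene in each group. In the 4N livers Slc36a2 (5293 normalized counts per kilobase) and Slc1a5 (5196) followed, while in the WT livers Slc6a13 (4219) and Slc38a2 (3168) did. Exon lengths came from GENCODE M21, so these levels per kilobase are approximate. No spread over libraries was at hand to tell neighbours in this order apart.

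**Figure D2:**
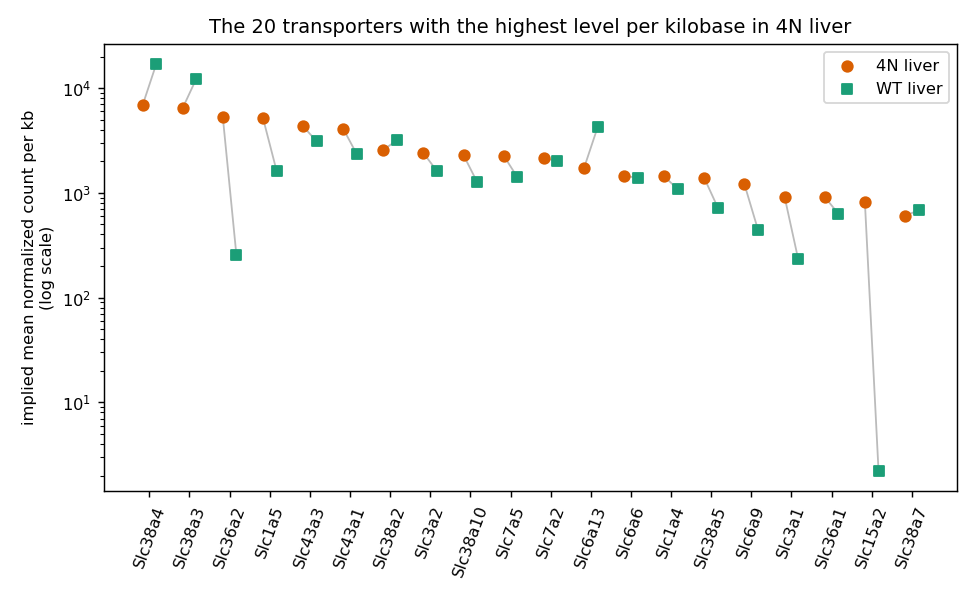
Implied mean normalized count per kilobase of exon (log scale) for the 20 transporters with the highest level in 4N liver, ordered by that level; circles are 4N liver, squares are WT liver, and a line joins the 2 values of a gene. Slc38a4 and Slc38a3 lead in both groups, Slc36a2 ranks 3 in the 4N group, against 28 in the WT group, and Slc15a2 has the widest gap.

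The other Slc38 members were less abundant in both groups. Slc38a5, a system N carrier, stood at 3062 normalized counts in the 4N group, against 1594 in the WT group, and rose by 0.94 on the log2 scale (SE 0.30, adjusted p = 0.013) according to the authors' deposited table. Slc38a10, a carrier of intracellular membranes, stood at 12390 in the 4N group, against 6850 in the WT group, and rose by 0.86 (SE 0.25, adjusted p = 0.0059) according to the authors' deposited table. Slc38a11 was scarce, at 12.96 in the 4N group, against 97.7 in the WT group, and its fall of -2.91 (SE 1.02, adjusted p = 0.031) according to the authors' deposited table rested on few reads. Slc38a2, the system A carrier that cells induce when amino acids run short, did not pass, at 11991 in the 4N group, against 14763 in the WT group (log2 fold change -0.30, SE 0.22, according to the authors' deposited table). Slc38a9, a lysosomal carrier that reports arginine to the growth kinase mTORC1, did not pass either (0.34, SE 0.22, according to the authors' deposited table). Slc38a1 (0.15, SE 0.23) and the lysosomal Slc38a7 (-0.17, SE 0.30) were likewise uncalled according to the authors' deposited table. Slc38a6, with a mean of 800.2 normalized counts, stood at -0.18 (SE 0.25) according to the authors' deposited table.

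Some members neighbour each other in the genome. Slc38a1, Slc38a2 and Slc38a4 follow each other on chromosome 15 with 0 coding genes between them, and only the last of the 3 passed the test. Of 10 such neighbouring pairs with at most 5 coding genes between them in GENCODE M21, both members were called in 1, which was Slc6a13 and Slc6a12 on chromosome 6.

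Slc6a12 and Slc6a13 are carriers of GABA and related small molecules, and both fell. Slc6a12, which imports betaine, an osmolyte and methyl donor, stood at 1036 normalized counts in the 4N group, against 5004 in the WT group. Its log2 fold change according to the authors' deposited table was -2.27 (SE 0.30, adjusted p = 4.1e-12). Slc6a13, the GABA and taurine carrier of the liver cell surface, stood at 3836 in the 4N group, against 9426 in the WT group. Its log2 fold change according to the authors' deposited table was -1.30 (SE 0.23, adjusted p = 5.1e-07). Both calls held in the test against a 1.5-fold change and after either recentring, with adjusted p-values up to 0.021. Neither held with the t reference, under which no gene of the table was called.

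The promoters of this pair are shown because the genes lie side by side on the plus strand and fell together. The windows are those of the start site furthest upstream, out of 5 for Slc6a12 and 3 for Slc6a13, at chr6:121342324-121342623 and chr6:121300038-121300337 (RefSeq, GRCm38.p6). Capitals mark the 50 bases from the RefSeq start site. For Slc6a12 the bases that follow this start were not found in a GENCODE M21 transcript of the gene, so its start is less certain than that of Slc6a13.
Slc6a12: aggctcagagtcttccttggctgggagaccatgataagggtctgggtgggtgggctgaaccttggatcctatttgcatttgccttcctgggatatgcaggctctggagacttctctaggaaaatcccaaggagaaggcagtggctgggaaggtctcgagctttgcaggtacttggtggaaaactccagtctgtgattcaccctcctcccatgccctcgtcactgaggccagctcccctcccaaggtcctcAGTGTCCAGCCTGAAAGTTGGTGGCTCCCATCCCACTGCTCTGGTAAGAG
Slc6a13: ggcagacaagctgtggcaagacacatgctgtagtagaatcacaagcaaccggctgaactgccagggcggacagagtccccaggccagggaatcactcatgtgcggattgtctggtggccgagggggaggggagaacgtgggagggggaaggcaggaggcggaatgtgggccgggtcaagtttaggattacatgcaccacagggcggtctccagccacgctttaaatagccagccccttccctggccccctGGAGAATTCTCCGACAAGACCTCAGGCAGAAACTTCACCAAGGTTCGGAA

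Hepatocyte markers were lower in part beside these falls of Slc38a4, Slc38a3, Slc6a12 and Slc6a13. Of 12 hepatocyte markers, 5 fell and 0 rose, with a median log2 fold change of -0.41. That was 41.7% called, beside 22.2% of all genes with a mean of at least 1000. Recentring on secreted plasma proteins gave 3 higher and 2 lower and a median of 0.15. That recentring is no independent check here, because the hepatocyte list shares genes with the secreted plasma proteins, among them Alb and transferrin. The largest falls were those of Cyp2e1, an enzyme of drug and alcohol metabolism, at 1090 implied normalized counts in the 4N group, against 63510 in the WT group, and of Tat, which breaks down tyrosine, at 426 in the 4N group, against 18303 in the WT group. The urea cycle enzyme Cps1 and the lipoprotein genes Apob and Apoa1 also fell, at -0.91, -1.05 and -0.84 on the log2 scale according to the authors' deposited table. Most of the summed level of the list was Alb and transferrin (Trf), neither of which was called. The summed level of the list was 12038576 implied normalized counts in the 4N group, against 12632354 in the WT group, and their part in the transporter falls was not tested. In whole tissue, fewer cells of a type and less RNA per cell cannot be told apart.

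The rest of the Slc6 family, which also carries monoamines and creatine, held 1 rise and 2 falls at low level. Slc6a9, the glycine carrier GlyT1 that red cell precursors use for heme synthesis, stood at 4425 normalized counts in the 4N group, against 1618 in the WT group. It rose by 1.45 on the log2 scale (SE 0.35, adjusted p = 4.5e-04) according to the authors' deposited table. Slc6a21 stood at 0.627 in the 4N group, against 93.6 in the WT group, with a log2 fold change of -7.22 (SE 1.38, 95% interval -9.94 to -4.51, adjusted p = 5.2e-06) according to the authors' deposited table. Slc6a15, a sodium-dependent carrier of branched-chain amino acids and proline best known from neurons, had no reads in the 4N group and an implied 29.6 normalized counts in the WT group. It was called lower according to the authors' deposited table (adjusted p = 0.0026), and no fold is given for it. Slc6a16, the neighbour of Slc6a21 on chromosome 7, stood at 4.07 in the 4N group, against 105 in the WT group, but did not pass, with an SE of 2.72 on the log2 scale according to the authors' deposited table.

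Abundant Slc6a6, the taurine carrier, stood at 8971 normalized counts in the 4N group, against 8607 in the WT group. Its log2 fold change of 0.06 according to the authors' deposited table had a 95% interval of -0.31 to 0.42. Slc6a19, the neutral amino acid carrier B0AT1, stood at 146 in the 4N group, against 279 in the WT group, and did not pass (-0.93, SE 0.42, adjusted p = 0.13, according to the authors' deposited table). Its surface partner Cltrn, also called collectrin, was at 210 in the 4N group, against 409 in the WT group, and did not pass either (-0.96, SE 0.37, adjusted p = 0.060, according to the authors' deposited table). The serotonin carrier Slc6a4 (-0.50), the creatine carrier Slc6a8 (-0.12), the dopamine carrier Slc6a3 (0.55) and the vesicular Slc6a17 (0.72) were uncalled according to the authors' deposited table. So were the GABA carrier Slc6a11 (-2.30, SE 2.20) and the proline carriers Slc6a20a (0.67, SE 0.35) and Slc6a20b (0.75, SE 0.92) according to the authors' deposited table. Slc6a20a and Slc6a20b are related neighbours on chromosome 9, and whether reads were shared between them was not tested.

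Among the 7 glutamate and neutral amino acid carriers of the Slc1 family, 1 rose. Slc1a5, also called ASCT2, which exchanges glutamine and other neutral amino acids, stood at 14361 normalized counts in the 4N group, against 4499 in the WT group. Its rise according to the authors' deposited table was 1.67 on the log2 scale (SE 0.27, 95% interval 1.15 to 2.20, adjusted p = 1.6e-08). Slc1a4, its close relative ASCT1, stood at 5648 in the 4N group, against 4229 in the WT group, and did not pass (0.42, SE 0.22, adjusted p = 0.22, according to the authors' deposited table). The glutamate carriers proper were scarce: Slc1a2, the leading glutamate carrier of brain astrocytes, had a mean of 145 normalized counts according to the authors' deposited table, and Slc1a1, Slc1a3, Slc1a6 and Slc1a7 had 4.81 to 49.5. None of these passed. The interval of Slc1a2 ran from -0.82 to 0.95 on the log2 scale, and that of Slc1a7, with fewer reads, from -5.72 to 1.31.

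Of the 2 heavy chains of the dimeric carriers 1 rose, and whether a heavy chain differed from its light chain in fold change was not tested. Slc3a1, the heavy chain that pairs with Slc7a9 to take up cystine and dibasic amino acids, stood at 2074 normalized counts in the 4N group, against 526 in the WT group. It rose by 1.98 on the log2 scale (SE 0.37, adjusted p = 3.8e-06) according to the authors' deposited table. Its light chain Slc7a9 stood at 63.3 in the 4N group, against 52.2 in the WT group, and its log2 fold change of 0.28 had an SE of 1.05 according to the authors' deposited table. Per kilobase, Slc3a1 had an implied 913 normalized counts and Slc7a9 had 30.5 in the 4N group, so transcripts of the heavy chain far outnumbered those of this light chain.

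The other heavy chain, Slc3a2 (4F2hc, CD98), stood at 7237 normalized counts in the 4N group, against 4862 in the WT group, and missed the threshold according to the authors' deposited table (0.57, SE 0.23, adjusted p = 0.075). Its partner Slc7a5 (LAT1), which imports leucine and other large neutral amino acids, stood at 7953 in the 4N group, against 4964 in the WT group. According to the authors' deposited table Slc7a5 rose by 0.68 (SE 0.20, adjusted p = 0.0079), a log2 change whose 95% interval, 0.28 to 1.08, largely covered that of Slc3a2, 0.12 to 1.03. Recentring on secreted plasma proteins brought Slc3a2 past the threshold (a log2 fold change of 1.13).

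The other 11 Slc7 members did not pass. Slc7a2, a cationic amino acid carrier of liver that brings in arginine, was the most abundant of the family at 18440 normalized counts in the 4N group, against 17591 in the WT group. Its log2 fold change of 0.07 according to the authors' deposited table had a 95% interval of -0.39 to 0.53. Slc7a1, the widespread arginine carrier, stood at 3646 in the 4N group, against 3030 in the WT group (0.27, SE 0.21, according to the authors' deposited table). The Slc3a2 partners Slc7a8 (0.60, SE 0.26, adjusted p = 0.11), Slc7a6 (0.07, SE 0.32) and Slc7a7 (-0.12, SE 0.27) were uncalled according to the authors' deposited table. Slc7a3, Slc7a4, Slc7a10 and Slc7a15 had means of 16.0 to 375 normalized counts according to the authors' deposited table, and log2 fold changes of 0.01 to 1.02.

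Slc7a11, the cystine and glutamate exchanger xCT that feeds glutathione synthesis, stood at 93.1 normalized counts in the 4N group, against 42.9 in the WT group, and did not pass (1.12, SE 0.60, adjusted p = 0.23, according to the authors' deposited table). Its promoter and that of Slc1a4 are shown because they hold the composite element bound by ATF4 and C/EBP factors, the switch of the amino acid response. The motif TGATGNAAN was searched on both strands in windows from 250 bases before to 50 after each start site. It was found in 5 of 64 windows of 44 transporter genes (7.81%) and in 3.95% of all 32851 windows. Overlapping windows of Slc7a7 hold the same match, and by gene the motif was found in 4 of 44. The windows are chr3:50443564-50443863 for Slc7a11 and chr11:20332664-20332963 for Slc1a4, both on the minus strand (RefSeq, GRCm38.p6), and capitals mark the matches. In Slc7a11 they began at -66 and -48, counted from the start site, and in Slc1a4 at -5.
Slc7a11: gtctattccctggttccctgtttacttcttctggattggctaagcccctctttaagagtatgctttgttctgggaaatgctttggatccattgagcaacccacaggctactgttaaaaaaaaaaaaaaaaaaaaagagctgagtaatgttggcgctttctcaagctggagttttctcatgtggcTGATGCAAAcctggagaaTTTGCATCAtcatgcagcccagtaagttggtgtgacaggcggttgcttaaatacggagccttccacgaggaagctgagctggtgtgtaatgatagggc
Slc1a4: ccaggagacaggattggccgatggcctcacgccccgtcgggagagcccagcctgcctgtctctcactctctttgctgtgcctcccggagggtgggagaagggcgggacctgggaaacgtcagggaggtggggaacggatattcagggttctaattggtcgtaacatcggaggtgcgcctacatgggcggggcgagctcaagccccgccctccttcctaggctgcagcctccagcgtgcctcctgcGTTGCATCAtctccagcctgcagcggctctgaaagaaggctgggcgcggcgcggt

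The composite element also matched in windows of Slc7a7 and Slc6a21, so that of 4 genes holding it 1 was called, Slc6a21, which fell. Of the 10 transporters that rose, only 6 had a listed promoter. Slc1a5, Slc7a5, Slc15a3 and Slc36a2 had none and were not searched, nor were Slc38a3 and Slc6a15, which fell. The core of the antioxidant element (TGA, any 4 bases, GC, any 3 bases, G) was searched in the same way. It was found in 21 of the 64 windows (32.8%) and in 15.1% of all windows, with 0 in the window of Slc7a11. By gene this was 15 of 44, since several start sites of a gene can lie in overlapping windows. The median GC content was 57.5% in the transporter windows, against 52.7% in all windows, and its part in this share was not tested. A direct repeat of AGGTCA with any 1 base between the copies was found in 0 of the 64 windows and in 0.0396% of all windows. The matches describe letters in these windows and not binding.

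Of the 4 peptide and histidine transporters of the Slc15 family, 2 rose and 1 fell. Slc15a2 (PEPT2), the high-affinity importer of di- and tripeptides known from kidney, had the largest log2 fold change of all 57 transporters. It stood at 3431 normalized counts in the 4N group, against 9.33 in the WT group, and the log2 fold change according to the authors' deposited table was 8.52 (SE 2.58, adjusted p = 0.0094). Its 95% interval ran from 3.47 to 13.58. The SE was the largest of all 29 transporters whose mean reached 1000, and 4 of the 8656 genes at that level had a larger one, against a median of 0.24. The dispersion implied by this SE was 3.77, against a median of 0.0329 over those genes. Values of single libraries, which would show where this spread lies, were not analysed here. The single listed promoter of Slc15a2, chr16:36784913-36785212 on the minus strand (RefSeq, GRCm38.p6), is shown with the 50 bases from the start site in capitals.
Slc15a2: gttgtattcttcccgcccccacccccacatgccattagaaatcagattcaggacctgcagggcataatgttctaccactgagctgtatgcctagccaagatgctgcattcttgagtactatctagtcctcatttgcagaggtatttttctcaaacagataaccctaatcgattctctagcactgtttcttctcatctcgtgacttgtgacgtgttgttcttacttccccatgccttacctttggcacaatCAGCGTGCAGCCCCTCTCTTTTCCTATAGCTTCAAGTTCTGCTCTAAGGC

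Slc15a3 and Slc15a4, lysosomal carriers of histidine and small peptides, went opposite ways. Slc15a3 stood at 1267 normalized counts in the 4N group, against 669 in the WT group, and rose by 0.92 on the log2 scale (SE 0.26, adjusted p = 0.0055) according to the authors' deposited table. Slc15a4 stood at 823 in the 4N group, against 1681 in the WT group, a fall of -1.03 on the log2 scale (SE 0.23, adjusted p = 1.7e-04) according to the authors' deposited table. The fall of Slc15a4 was not called after recentring on secreted plasma proteins (-0.48). Slc15a3 is known from macrophages, and of 12 macrophage and Kupffer cell markers 4 rose and 1 fell. That was 41.7% called, beside 15.3% of all genes and 22.2% of those with a mean of at least 1000. The summed level of these markers was 54197 implied normalized counts in the 4N group, against 41530 in the WT group. Recentring on secreted plasma proteins gave 10 of them higher and 1 lower. Their part in the rise of Slc15a3 was not tested. Slc15a1 (PEPT1), the peptide carrier of the intestine, had a mean of 5.17 normalized counts according to the authors' deposited table and an interval of -4.23 to 4.44.

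**Figure D3:**
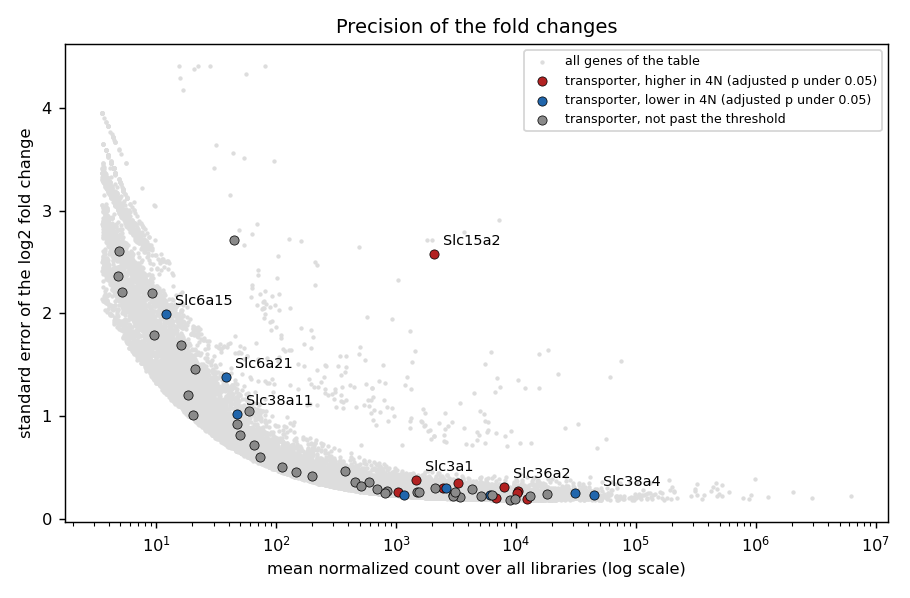
Standard error of the log2 fold change against the mean normalized count over all libraries (log scale), for all 23022 genes in light grey and for the 57 transporters in red (rose), blue (fell) and dark grey (not called). Slc15a2, at an SE of 2.58, lies far above other genes of its mean, while Slc36a2 (0.31) and Slc38a4 (0.23) lie in the dense band.

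Slc36a2 (PAT2), a proton-coupled carrier of glycine, alanine and proline, had the smallest adjusted p of all the transporters by the authors' Wald test. It stood at 12858 normalized counts in the 4N group, against 614 in the WT group, a 21.0-fold difference. According to the authors' deposited table the log2 fold change was 4.39 (SE 0.31, 95% interval 3.79 to 4.99, adjusted p = 9.5e-44). Its neighbours on chromosome 11 did not pass. Slc36a1 (PAT1), a lysosomal relative tied to mTORC1 signalling, stood at 4921 in the 4N group, against 3409 in the WT group, and did not pass (0.53, SE 0.29, adjusted p = 0.23, according to the authors' deposited table). Slc36a3, on its other side, had a mean of 4.93 normalized counts, and Slc36a4 stood at 0.08 (SE 0.26), according to the authors' deposited table.

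Slc15a2, Slc36a2 and Slc3a1 are all known from the kidney tubule, so markers of kidney were looked up after these values had been seen. These 3 were picked among the members that rose, and the other members were not sorted by tissue. Slc7a9, the light chain of Slc3a1, did not pass (0.28, SE 1.05, according to the authors' deposited table). Of 15 such markers, 6 had a row, with means of 12.5 to 180 normalized counts according to the authors' deposited table, and their summed level was 577 implied normalized counts in the 4N group, against 392 in the WT group. The endocytic receptor Lrp2 was the single one called, higher (2.15, SE 0.73, adjusted p = 0.026, according to the authors' deposited table). Over all genes, 15.3% were called. Levels of unlike genes were not compared. The part of these 6 markers in the 3 rises was not tested.

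In the Slc43 family, Slc43a1 (LAT3), a facilitator of branched-chain amino acids and phenylalanine, stood at 14783 normalized counts in the 4N group, against 8450 in the WT group. This was a rise of 0.81 on the log2 scale (SE 0.19, adjusted p = 2.8e-04) according to the authors' deposited table. Slc43a3, which carries purine nucleobases, stood at 11149 in the 4N group, against 7998 in the WT group, and missed the threshold (0.48, SE 0.19, adjusted p = 0.064, according to the authors' deposited table). It was called once genes with a mean under 50 were left out. Slc43a2 (LAT4) did not pass (0.29, SE 0.26, according to the authors' deposited table).

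Red cell markers rose beside the increases of Slc6a9, Slc1a5, Slc43a1, Slc38a5 and Slc7a5. Of 17 erythroid markers 16 rose (94.1%, beside 7.94% of all genes) and 0 fell, with a median log2 fold change of 1.53. Their summed level was 3734283 implied normalized counts in the 4N group, against 1147992 in the WT group. Erythroblasts use Slc6a9, and their part in these increases was not tested. Of the 5 transporters, Slc1a5 had the largest log2 fold change, at 1.67, and Slc7a5 the smallest, at 0.68, according to the authors' deposited table. No rule fixed in advance chose these 5. The other members that rose, Slc3a1, Slc15a2, Slc15a3, Slc36a2 and Slc38a10, rose beside the same markers.

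Where the table had enough reads, failure to pass the test also bounded the change, given the deposited centring and intervals from normal tails. Of the 14 uncalled transporters whose mean reached 1000 normalized counts, 11 had a 95% interval wholly within a 2-fold change in either direction. The exceptions were Slc3a2, Slc7a8 and Slc36a1, whose upper bounds were 1.03, 1.12 and 1.09 on the log2 scale. Recentring on secreted plasma proteins raised every log2 fold change by 0.55. It brought 14 uncalled members of any mean past the threshold, among them Slc6a6, Slc7a2 and Slc43a3. Of 13 uncalled transporters with a mean of 50 to 1000, 5 were bounded in this way, and of 12 with a mean under 50, 0 were. The libraries' protocol names no strand-specific step, and 5 called members share exon sequence with a gene on the opposite strand in GENCODE M21, namely Slc3a1, Slc6a9, Slc15a3, Slc15a4 and Slc38a10. Reads of such pairs cannot be told apart without strand. The partner of Slc3a1, Prepl, was at 0.17 (SE 0.25) according to the authors' deposited table, and that of Slc6a9, Ccdc24, had a mean of 89.4 normalized counts and rose by 1.64 (SE 0.60). Tmem132a, the partner of Slc15a3, had a mean of 477 normalized counts and did not pass (0.61, SE 0.34). Gm11769, that of Slc38a10, had a mean of 28.9 (0.52, SE 0.82). Gm43474, that of Slc15a4, and Gm17114, a further one of Slc6a9, had no row.

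Amino acid carriers outside these families were called in 7 of 18 cases (38.9%), beside 15.3% of all genes and 22.2% of those with a mean of at least 1000. As deposited, 2 rose and 5 fell, with a median log2 fold change of -0.57, while recentring on secreted plasma proteins gave 6 higher and 2 lower and a median of -0.02. The mitochondrial ornithine carrier Slc25a15, part of the urea cycle, stood at 5048 normalized counts in the 4N group, against 14120 in the WT group (-1.48, SE 0.19, adjusted p = 3.4e-13, according to the authors' deposited table). The mitochondrial glutamate carrier Slc25a22 (-1.32, SE 0.25) and the aspartate and glutamate exchanger Slc25a13 (-0.77, SE 0.21) also fell according to the authors' deposited table. Slc16a10 (TAT1), which lets aromatic amino acids out of cells, stood at 12615 in the 4N group, against 4390 in the WT group, and rose by 1.52 (SE 0.20, adjusted p = 7.3e-13) according to the authors' deposited table. The vesicular GABA carrier Slc32a1 was called higher (5.02, SE 1.51, according to the authors' deposited table) at an implied 34.4 in the 4N group, against 1.06 in the WT group, both low levels.

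Enzymes that act on glutamine and glutamate fell in 5 of 15 cases and rose in 2, with a median of -0.17. That was 46.7% called, beside 15.3% of all genes and 22.2% of those with a mean of at least 1000. Recentring on secreted plasma proteins gave 5 higher and 3 lower and a median of 0.39. Gls2, the liver glutaminase that opens the glutamine delivered by carriers such as Slc38a3, stood at 4347 normalized counts in the 4N group, against 12286 in the WT group (-1.50, SE 0.22, adjusted p = 1.0e-09, according to the authors' deposited table). The aspartate aminotransferase Got1 (-1.60, SE 0.19) and the alanine aminotransferase Gpt (-1.99, SE 0.42) fell as well according to the authors' deposited table. Pycr1 (1.12, SE 0.36), which makes proline, and Oat (0.68, SE 0.23), the ornithine aminotransferase, rose according to the authors' deposited table. Glul, the glutamine synthetase of hepatocytes around the central vein, did not pass (0.12, SE 0.32, according to the authors' deposited table).

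Of 23 measured genes of the amino acid response, 6 rose and 3 fell (median 0.33). That was 39.1% called, beside 15.3% of all genes and 22.2% of those with a mean of at least 1000. Recentring on secreted plasma proteins gave 15 higher and 1 lower and a median of 0.88. The serine synthesis enzymes Psat1 (2.37, SE 0.30) and Phgdh (1.78, SE 0.26) and the mTORC1 inhibitor Ddit4 (1.73, SE 0.41) rose according to the authors' deposited table. The transcription factor Atf5 (-1.47, SE 0.37), the pseudokinase Trib3 (-1.53, SE 0.47) and the lipoprotein receptor Vldlr (-0.88, SE 0.30) fell according to the authors' deposited table. Atf4 itself (0.16, SE 0.21) and the asparagine synthetase Asns (0.33, SE 0.25) did not pass according to the authors' deposited table.

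Genes of lysosomal amino acid sensing and mTORC1 held 3 that rose and 2 that fell of 36, with a median of -0.08. Of the 29 whose mean reached 1000 normalized counts, 4 were called (13.8%), beside 22.2% of all such genes. Recentring on secreted plasma proteins gave 15 higher and 0 lower of the 36 and a median of 0.48. The called ones were the Rag GTPase Rragd (1.11, SE 0.33), the sestrin Sesn1 (0.68, SE 0.20) and the GATOR1 subunit Depdc5 (0.59, SE 0.20), which rose, and Sec13 (-0.77, SE 0.21) and Sar1b (-0.81, SE 0.23), which fell, according to the authors' deposited table. Of 10 measured partners and trafficking regulators of the transporters, 0 were called by the authors' Wald test and 2 had an unadjusted p under 0.05, while recentring on secreted plasma proteins gave 5 higher and 0 lower.

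**Figure D4:**
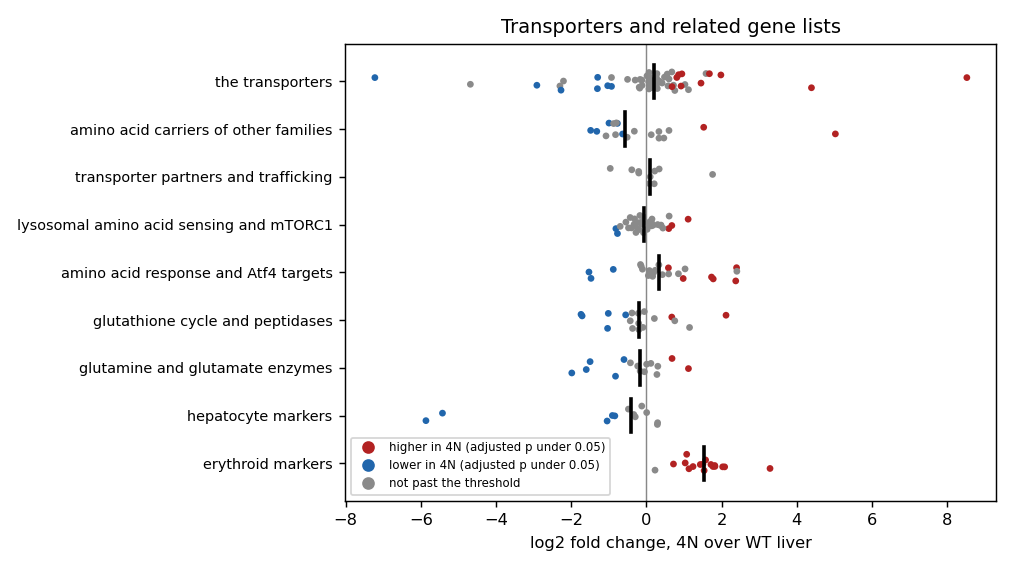
Log2 fold changes, 4N over WT liver, of the transporters and of 8 related lists; each point is a gene, red where it rose, blue where it fell and grey where it did not pass, and the black bar is the median. The transporters spread to both sides around a median of 0.21, the erythroid markers lie to the right at 1.53 and the hepatocyte markers to the left at -0.41; Slc6a15, with no reads in the 4N group, has no point.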

How the data were processed

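The authors sequenced poly(A)-selected RNA from 3 4N and 2 WT livers and deposited 1 table of 23022 genes. Per the file headers it holds, for each gene, the mean normalized count over the 5 libraries (a signal scaled between libraries by the authors), the log2 fold change and its SE, a test statistic (a score, deposited as the ratio of the log2 fold change to its SE), and deposited p-values, raw and adjusted. The submitters' processing notes name GRCm39; which aligner, counter or testing tool was run is not given in the sources used here. All deposited p-values were checked to be 2-sided normal tails of the statistic, adjusted by Benjamini-Hochberg over all 23022 genes, with 0 missing.

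Group means were computed from the deposited mean and fold change, and 95% intervals as the normal interval from the SE. The direction 4N over WT was settled from SEs: among genes with an implied level near 0 in 1 group, 12 negative and 0 positive ones had an SE under the smallest value possible with 2 empty libraries. Depth per library is unknown, so no counting interval is given. A call is an adjusted p under 0.05.

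The text names every called transporter and, by family, uncalled ones whose mean reached 1000, the most abundant one where a family had no other, and both heavy chains; further members are given briefly. The transporters and gene lists were chosen with earlier results of these data known. Exon lengths, neighbours and overlaps came from GENCODE M21 (GRCm38), matched by symbol, and promoters from RefSeq (GRCm38.p6), which matched 44 of 57 members. The kidney markers were chosen after the values were seen. The 6 alternatives were leaving out genes whose mean was below 50, testing for more than a 1.5-fold change, a threshold of 0.01, a t reference with 3 degrees of freedom, and recentring either on genes whose mean reached 10000 or on 27 secreted plasma proteins. The calculations were tested on simulated data and used scipy 1.17.1, pandas 2.3.3 and numpy 2.4.6 under Python 3.11.15, with plots from matplotlib 3.10.9.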

Additional observations from a re-analysis of the deposited data

How the results depend on the processing

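No paired analysis was possible because the groups share no replicate number and the table holds no values of single libraries; for the same reason the fits leaving out each replicate in turn were not run. Of the transporters, 10 were higher and 8 lower as deposited. With a minimum mean of 50, 11 were higher and 5 lower: Slc38a11, Slc6a15 and Slc6a21 were not tested there, and Slc43a3 was gained. Against a 1.5-fold change, 4 were higher and 5 lower (615 and 674 of all genes, beside 1828 and 1705 as deposited), and Slc1a5, Slc3a1, Slc15a2, Slc36a2, Slc38a4, Slc6a12, Slc6a13, Slc6a15 and Slc6a21 kept their calls. At a threshold of 0.01, 9 were higher and 7 lower (1210 and 1164 of all genes). With the t reference 0 were higher and 0 lower, as were 0 of all genes in either direction (2513 genes at an unadjusted p under 0.05). That setting therefore does not set single members apart. Recentring on genes whose mean reached 10000 shifted log2 fold changes by -0.05 and gave 10 higher and 8 lower. Recentring on secreted plasma proteins shifted them by 0.55 and gave 24 higher and 5 lower (6464 and 875 of all genes); Slc15a4, Slc38a3 and Slc38a11 lost their calls and 14 were gained. That shift turned the sign of 7 uncalled members, Slc1a3 (0.36), Slc6a4 (0.051), Slc6a8 (0.43), Slc7a7 (0.44), Slc38a2 (0.25), Slc38a6 (0.38) and Slc38a7 (0.39), and of the family medians of Slc6 (0.05) and Slc38 (0.38); the other recentring turned Slc7a15 (-0.038). Depth limits the 15 members with a mean under 50, where 3 were called.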

Other observations

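Enzymes of the glutathione cycle and surface peptidases, which release the amino acids and small peptides that the transporters carry, were also measured. Of 18 genes, 2 rose and 5 fell, with a median log2 fold change of -0.21. That was 38.9% called, beside 15.3% of all genes and 22.2% of those with a mean of at least 1000. Recentring on secreted plasma proteins gave 4 higher and 2 lower and a median of 0.34. Cth, which makes cysteine from cystathionine, fell (-1.74, SE 0.22, according to the authors' deposited table), as did the surface peptidases Anpep (-1.03, SE 0.21) and Dpp4 (-1.01, SE 0.23) according to the authors' deposited table. Ggt6 (2.12, SE 0.44) and Chac2 (0.67, SE 0.22), which cleaves glutathione inside cells, rose according to the authors' deposited table.

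Among markers of other liver cell types, 0 of 11 endothelial genes rose and 1 fell, 2 of 10 stellate and mesenchymal genes rose and 1 fell, and 0 of 7 cholangiocyte genes rose and 1 fell. Of 6 lymphoid genes 0 rose and 1 fell. Over all genes 15.3% were called, and 22.2% of those with a mean of at least 1000. The endothelial (9.09%), cholangiocyte (14.3%) and lymphoid (16.7%) shares lie near or below these. Recentring on secreted plasma proteins gave 5 endothelial, 7 stellate and mesenchymal, 4 neutrophil, 1 cholangiocyte and 1 lymphoid gene higher, and 1 lymphoid gene lower. By the authors' test 0 of 8 neutrophil genes were called, with 0 at an unadjusted p under 0.05, and 0 of 6 megakaryocyte genes were called, with 2 at an unadjusted p under 0.05. Of the 27 secreted plasma proteins 0 rose and 14 fell (51.9%), with a median log2 fold change of -0.55.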
